A study of Mus musculus with 28 samples.

Results

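Cytosolic ribosomal protein genes encode the proteins that, with the ribosomal RNAs, build the large and the small subunit of the cytoplasmic ribosome. Here they are the genes whose symbol is Rpl or Rps followed by a number, with an optional letter or l, together with Rplp0, Rplp2 and Rpsa, represented by a probe set that names that gene alone. This rule gave 46 genes of 18193 on the array, 24 of the large and 22 of the small subunit. It uses symbols and no measured change, but the set was chosen with earlier results of these data known. Ribosomal protein mRNAs are among the most abundant in any dividing or protein-making cell. Most of them start with a C followed by a run of pyrimidines, the terminal oligopyrimidine (TOP) motif, through which mTOR and the RNA-binding protein Larp1 set how strongly they are translated. Their supply is therefore known to be set largely by translation and stability, while Myc raises transcription of ribosome assembly factors and of many ribosomal protein genes.

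The RNA came from mouse spleen, homogenised after the animals had eaten a diet supplemented with abscisic acid (ABA), a plant hormone, or a control diet, and after a challenge with lipopolysaccharide (LPS), a component of the outer membrane of bacteria, or none. Each of 28 samples was measured on 1 array of 45101 probe sets. A wild-type-only experiment held 4 arrays of LPS-challenged mice on the ABA diet, 4 of LPS-challenged mice on the control diet, and 2 arrays of unchallenged mice on each diet. A genotype experiment held 2 arrays in each of 8 groups, null and wild-type mice on either diet with or without LPS. Every mouse carried floxed PPARg. Null mice also carried Cre recombinase driven by the MMTV promoter, described by the submitters as active in epithelial and immune cells, and wild-type mice lacked Cre. Nothing in the labels says that arrays of a group are different animals, and the p-values thus cover the spread between these samples alone, which may be technical.

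Values are the authors' log2 values, and their number limits the precision, since an array gives no count of molecules. The lowest value, shared by at least 35.9% of the probe sets of every array, was 2.29 in the wild-type-only and 2.24 in the genotype experiment, so levels are not compared between experiments. Pparg, the targeted gene, read 2.45 to 3.31 in null and 2.31 to 3.56 in wild-type mice of the genotype experiment, and the sources used here do not place its probe set inside or outside the deleted part. B cell markers averaged 8.17 to 10.06 and T cell markers 6.72 to 8.59 per array, so both lymphocyte types of the spleen were present on every array. Xist, a transcript of female cells, was high on each of the 12 wild-type-only arrays and on 6 of the 16 others. In wild-type mice on the control diet of the genotype experiment, it read 12.46 and 12.17 with LPS and 2.25 and 2.24 without. Between these groups, LPS and the difference in Xist cannot be told apart. On the ABA diet, wild-type mice there read 2.25 on each array with LPS, and 12.56 and 2.24 without. Pancreas markers averaged 13.03 and 9.16 on 1 null array each of the unchallenged ABA and control diet groups, and 9.67 and 7.87 on 1 unchallenged and 1 LPS-challenged wild-type array of the wild-type-only experiment on the control diet, against at most 3.98 elsewhere. On 1 null ABA array with LPS the 3′ probe set of Gapdh exceeded the 5′ one by 3.22. The other 15 arrays of the genotype experiment had differences of 0.04 to 0.77, and all 12 wild-type-only arrays had 3.94 to 4.81. For b-actin the same null array differed by 2.93 and the other 15 by 0.61 to 1.88. The 3′ probe set of 18S rRNA read 13.11 on the other null ABA array with LPS. It read 4.52 to 9.86 on the remaining 15 arrays of the genotype experiment, and 15.02 to 15.73 on the wild-type-only arrays. The part of these differences in the members' values was not tested. In RNA from a whole organ, fewer cells of a type and less RNA per cell cannot be told apart.

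The pyrimidine run was looked for around the RefSeq transcription starts of the genes, as a C followed by pyrimidines over at least 6 bases, reading the sense strand, within 25 bases before and 30 bases from the start. RefSeq promoters (GRCm38.p6) were matched for 40 of the 46 genes, and 30 of them (75%) held such a run, against 40.8% of 27025 genes. The windows of 6 members are shown because their values carry the results that follow (Rpl12, Rpl10a, Rps2, Rpl38 and Rps6) or because no run was found (Rpl3l). Capitals mark the longest run, or the first of those equally long, and each line reads 5′ to 3′ on the gene's own strand. In Rpl10a another run of the same length lies further on.
Rpl12: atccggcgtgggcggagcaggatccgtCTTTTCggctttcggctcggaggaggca
Rpl10a: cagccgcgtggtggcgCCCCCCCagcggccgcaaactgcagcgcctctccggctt
Rps2: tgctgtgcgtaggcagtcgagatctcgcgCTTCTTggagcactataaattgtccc
Rpl38: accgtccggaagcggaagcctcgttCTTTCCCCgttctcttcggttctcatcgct
Rps6: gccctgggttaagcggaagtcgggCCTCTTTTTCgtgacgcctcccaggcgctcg
Rpl3l: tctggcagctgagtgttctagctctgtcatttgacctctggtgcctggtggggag
The windows lie at chr2:32961687-32961741 for Rpl12, chr17:28328446-28328500 for Rpl10a, chr17:24720038-24720092 for Rps2, chr11:114668555-114668609 for Rpl38 and chr17:24727801-24727855 for Rpl3l, all on the plus strand, and at chr4:86857338-86857392 on the minus strand for Rps6. RefSeq lists 2 starts each for Rpl10a and Rpl3l, and 1 of them is shown. The marked runs of the first 5 were 6 to 10 bases long and began at or within 9 bases of the start. The annotated start need not be the start used in spleen. In the full window of 300 bases, CCGGAAG, the core of an ETS factor motif, occurred on either strand in 20 of 40 members (50%), against 9.93% of all genes. The YY1-type letters AANATGGC occurred in 12.5%, against 6.96%, and TATAAA in 12.5%, against 15.7%. A match describes the letters and is not a binding site.

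Most members were among the brightest features of the array. In the wild-type-only experiment 35 of 46 had a mean over 10 and 26 lay over 12 on every array, and in the genotype experiment 35 had a mean over 10 and 33 lay over 12 on every array. Means were highest for Rpl13a (15.64), Rps29 (15.00) and Rpl38 (14.84) in the wild-type-only experiment, and for Rps14 (15.56), Rpl38 (15.49) and Rps7 (15.34) in the genotype experiment. These are levels of different probe sets, and their order does not rank the mRNAs.

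At the low end, Rpl3l, the paralogue of Rpl3 known from striated muscle, read 2.29 and 2.24, the lowest value, on every array of its experiment. Rpl39l, a paralogue known from testis, averaged 2.36 and 2.42. Rps16 and Rps27, core proteins of the small subunit, also averaged 2.29 each over the wild-type-only arrays, and 2.24 and 2.31 in the genotype experiment, so their probe sets give only a bound. Rps4l read 2.29 to 2.30 in the wild-type-only experiment, at the lowest value, and 3.39 to 4.36 in the genotype experiment. There it read 3.50 on most arrays. Rpl37 read 3.73 and Rpl39 read 5.46 on every unchallenged array of the wild-type-only experiment. Whether such a repeated value is a floor of the probe set was not tested, so changes of these 3 genes may not follow the mRNA. In all, 5 members in the wild-type-only and 4 in the genotype experiment stayed within 0.5 of the lowest value on every array. Rpl3l and Rps16 were removed by the filter on low values, which left 44 members in each fit.

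The median range of the members over the arrays was smaller than that of other tested genes. Over 12 arrays of the wild-type-only experiment the median range of a tested member was 0.547 log2 units, against 0.910 for all tested genes and 1.146 for tested genes with a mean over 10. Over 16 arrays of the genotype experiment it was 0.680, against 1.425 and 1.492. Between features of a mean over 12, the median range was 0.527 for 30 members and 0.941 for 294 other genes in the wild-type-only experiment, and 0.660 for 33 members and 1.406 for 278 other genes in the genotype experiment. These members still lay higher, with median means of 13.93 and 14.77 against 12.73 and 12.71, and the part of this higher level in their narrow ranges was not tested. Of the 35 members with a mean over 10, 28 and 31 had a range under 1. The 9 tested members with a mean of at most 10 had a median range of 0.530 in the wild-type-only and of 1.567 in the genotype experiment, the second above the 1.425 of all tested genes. In the wild-type-only experiment Rps27, Rps4l, Rpl39l and Rpl37 among them hardly moved, with ranges of at most 0.074. The median there was the range of Rpl39, while Rpl12, Rps25, Rpl14 and Rps6 had ranges of 1.04 to 2.80. The widest ranges were those of Rpl12 (2.80), Rps25 (2.15) and Rpl14 (1.54) in the wild-type-only experiment, and of Rpl27a (2.88), Rps6 (2.58) and Rpl37 (2.51) in the genotype experiment. The map of deviations by array shows the few wide members among the narrow ones.

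**Figure D1:**
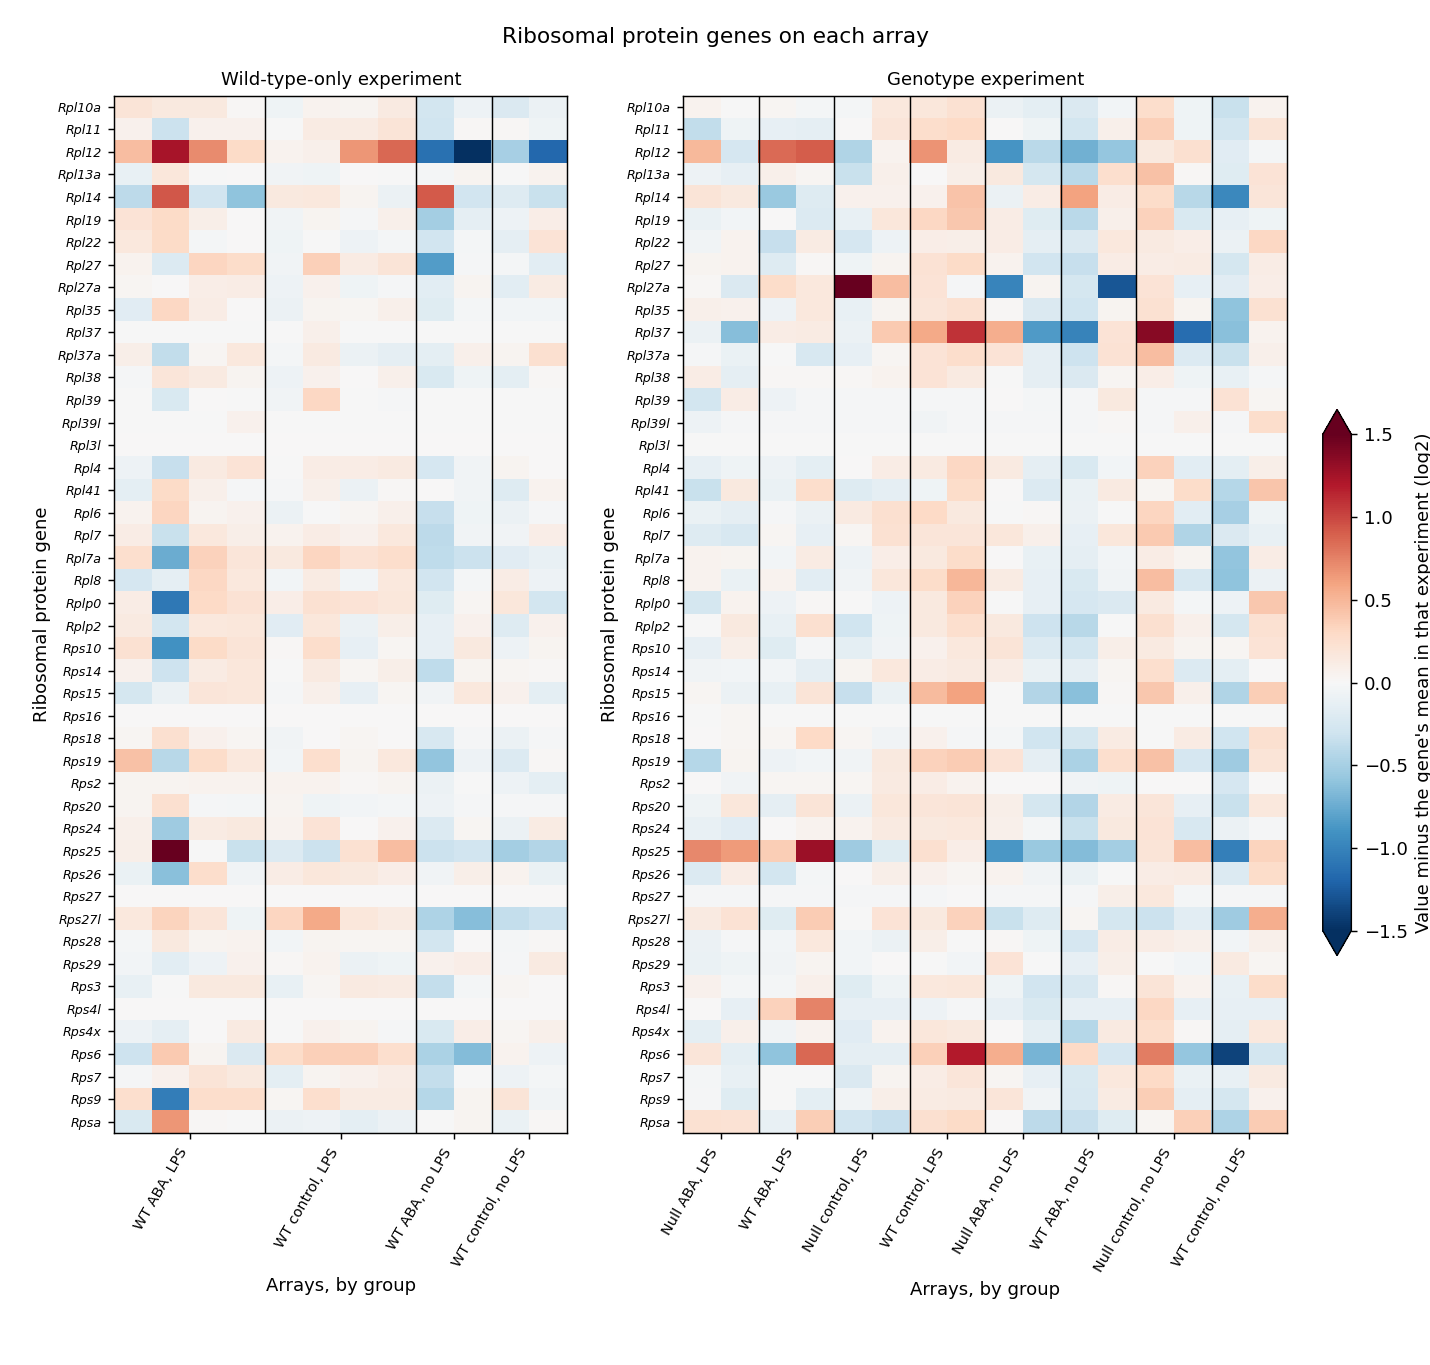
All 46 ribosomal protein genes (rows, large subunit above small subunit) on each array (columns, by group) of the wild-type-only experiment (left) and the genotype experiment (right); colour is the log2 value minus the gene's mean in that experiment. Most rows stay close to 0, while Rpl12, Rps25 and Rpl14 on the left and Rpl27a, Rps6 and Rpl37 on the right span 1.54 to 2.88 log2 units.

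The members tended to move together between arrays of the same group. Each value was first taken as its deviation from its group's mean. Over the 35 members with a mean over 10, the median pairwise correlation of these deviations was 0.307 over the 12 arrays of the wild-type-only experiment. Between these members and the other genes with a mean over 10 it was 0.062. In the genotype experiment the median between members was 0.662 over the 16 arrays, against 0.381 with the other genes. These correlations are descriptions: all genes of an array share its RNA, labelling and normalisation, and groups were pooled. Per array, the mean of these members ranged over 13.28 to 13.66 in the wild-type-only and over 14.25 to 14.77 in the genotype experiment.

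The effect of LPS on these mRNAs was measured in wild-type mice on the control diet over both experiments, with experiment as a term. Of 44 tested members, 3 rose and 0 fell at an adjusted p under 0.05 (limma, Benjamini-Hochberg over all 13457 tested genes), where 10.6% of all tested genes rose and 7.5% fell. The share of members called, 6.82%, was below that of all tested genes, 18.1%. The 3 were Rpl12, a protein of the GTPase-associated centre where elongation factors bind, Rpl10a, the protein of the L1 stalk beside the tRNA exit site, and Rps2, which lines the path of the mRNA into the small subunit.

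Rpl12 had the largest estimate of the 44 members. Its only single-gene probe set averaged 7.78 in the wild-type-only and 8.85 in the genotype experiment, where tested members had median means of 13.25 and 14.54. No second probe set could be set beside it. Rpl12 read 7.84, 7.86, 8.45 and 8.64 on the arrays with LPS and 7.29 and 6.61 without LPS on the control diet of the wild-type-only experiment. In wild-type mice of the genotype experiment it read 9.52 and 8.97 with LPS, against 8.68 and 8.82 without. All arrays with LPS lay above those without in each experiment. The fitted change was 0.93 ± 0.23 log2 units (SE; 95% interval 0.44 to 1.42), 1.91-fold, with an adjusted p of 0.0108 from limma. Within the wild-type-only experiment alone it was 1.24 (adjusted p 0.0426), and within the genotype experiment alone 0.50 (adjusted p 0.244), so the genotype experiment did not pass by itself. Leaving out replicate 2 of the unchallenged control diet group of the wild-type-only experiment gave 0.73 (adjusted p 0.0513), and the other 19 fits without 1 array kept the call.

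Rps2 rose by a small and even amount. It read 11.90, 11.90, 11.87 and 11.89 with LPS and 11.77 and 11.70 without on the control diet of the wild-type-only experiment, and 15.06 and 15.00 with LPS against 14.70 and 14.95 without in wild-type mice of the genotype experiment. The arrays did not overlap in either experiment, and the change was 0.17 ± 0.04 (SE, adjusted p 0.00388). Rpl10a changed by 0.24 ± 0.08 (SE, adjusted p 0.0367), with 13.55 to 13.74 on the LPS arrays and 13.39 and 13.52 without LPS in the wild-type-only experiment. Alone, neither experiment passed for Rpl10a (adjusted p 0.15 and 0.28), and for Rps2 the wild-type-only experiment did (0.00833) and the genotype experiment did not (0.313). Both calls rested on the deposited scaling: with quantile normalisation Rps2 changed by 0.02 (adjusted p 0.83) and Rpl10a by 0.14 (adjusted p 0.162).

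On the ABA diet, the same contrast in wild-type mice gave 3 members that rose and 0 that fell, where 8.93% of all tested genes rose and 6.33% fell. Rpl12 read 8.25, 9.02, 8.49 and 8.07 with LPS and 6.67 and 6.22 without in the wild-type-only experiment. The wild-type arrays of the genotype experiment read 9.70 and 9.75 with LPS, against 8.13 and 8.27 without. All arrays with LPS lay more than 1 log2 unit above all arrays without LPS in each experiment. The change was 1.79 ± 0.23 (SE; 95% interval 1.30 to 2.28), 3.46-fold, with an adjusted p of 6.52e-05. It was 2.01 (adjusted p 0.00506) in the wild-type-only experiment alone and 1.52 (adjusted p 0.0546) in the genotype experiment alone.

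Rpl10a and Rpl38 were the other members called on the ABA diet. Rpl10a read 13.80, 13.76, 13.76 and 13.63 with LPS and 13.33 and 13.53 without in the wild-type-only experiment, a change of 0.25 ± 0.08 over both experiments (SE, adjusted p 0.0375). Rpl38, a large subunit protein whose loss in mice disturbs translation of Hox mRNAs, read 14.83, 15.03, 14.98 and 14.88 with LPS and 14.61 and 14.78 without. Its change over both experiments was 0.19 ± 0.06 (SE, adjusted p 0.044), and in the genotype experiment the wild-type arrays overlapped, at 15.51 and 15.51 with LPS and 15.27 and 15.52 without. Rps2, called on the control diet, changed by 0.10 (adjusted p 0.0754) on the ABA diet. Neither experiment alone passed for Rpl38 (adjusted p 0.0685 and 0.633). With quantile normalisation Rpl10a changed by 0.16 (adjusted p 0.119) and Rpl38 by 0.16 (adjusted p 0.105), so neither kept its call, while Rpl12 kept its call on both diets.

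**Figure D2:**
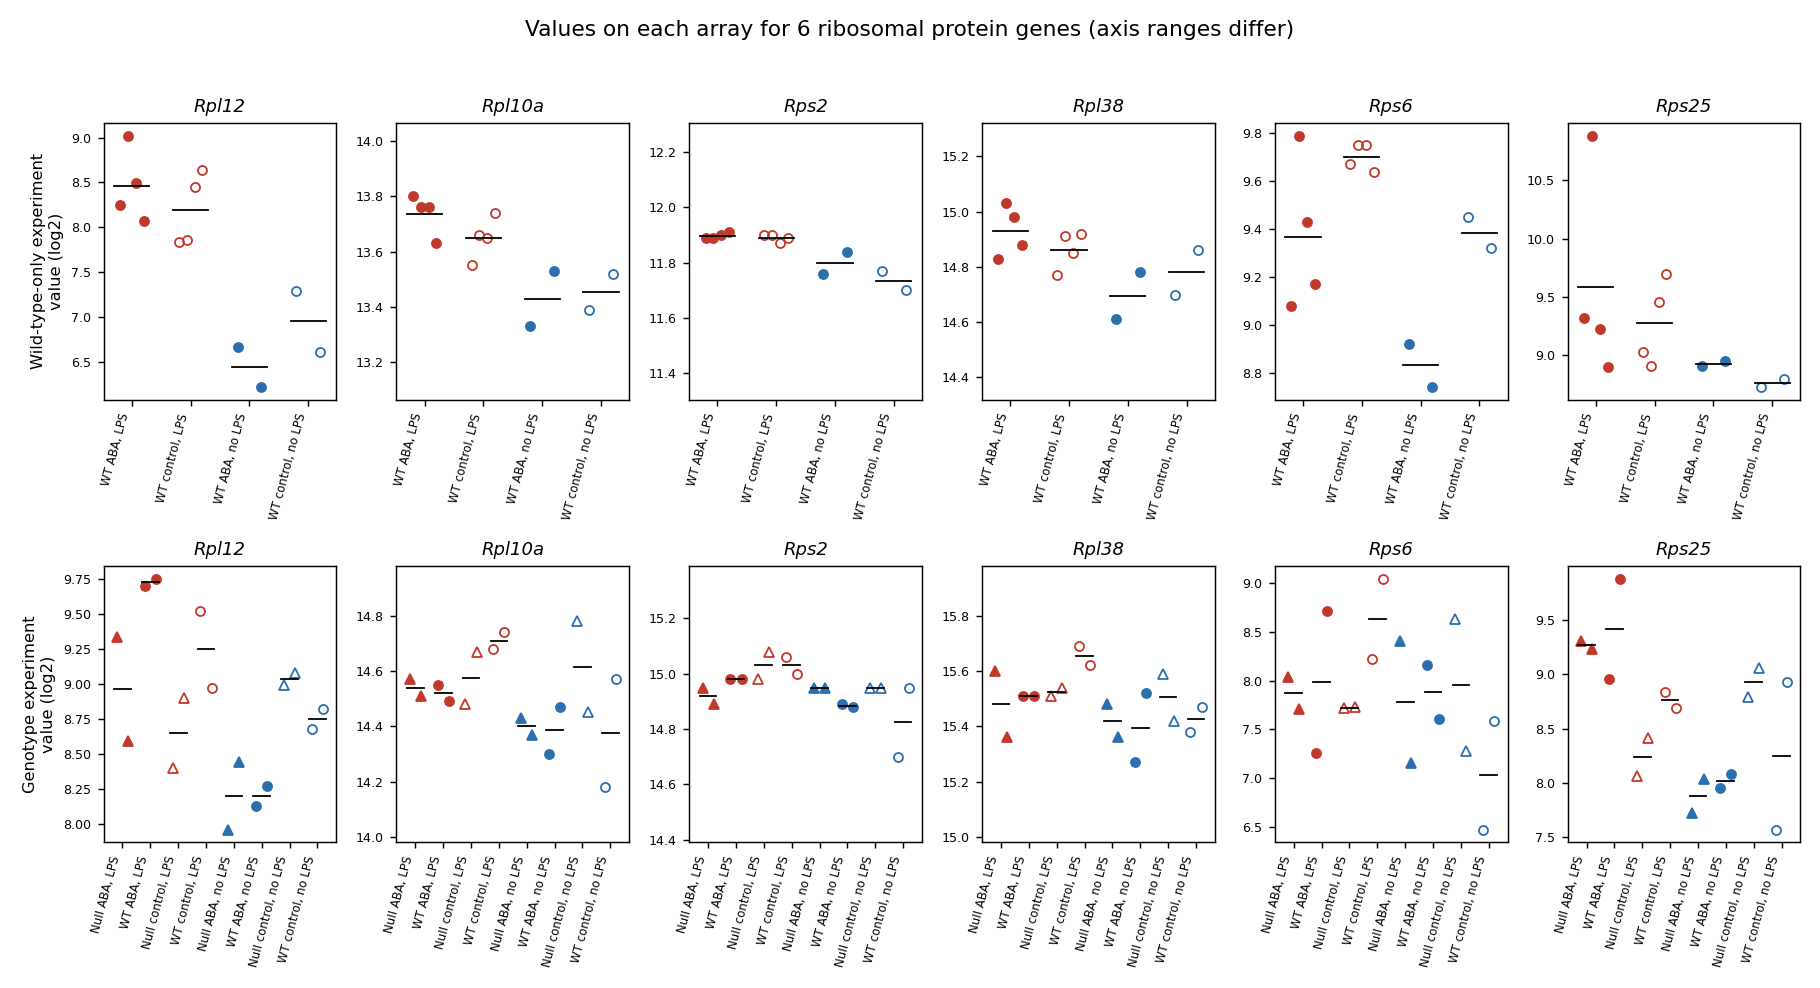
Log2 values (vertical axes, not starting at 0) of Rpl12, Rpl10a, Rps2, Rpl38, Rps6 and Rps25 on each array of the wild-type-only experiment (top) and the genotype experiment (bottom), by group; red is LPS and blue no LPS, filled is ABA and open control diet, triangles are null and circles wild-type, and black lines are group means. Rpl12 on the ABA diet in wild-type mice shows the widest gap, at 8.07 to 9.02 with LPS and 6.22 and 6.67 without (top), and 9.70 and 9.75 with LPS and 8.13 and 8.27 without (bottom).

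Most of the remaining members changed little. The median change with LPS over the 44 members was 0.16 (ABA diet) and 0.13 log2 units (control diet), against 0.001 and -0.001 for all tested genes. Estimates were above 0 for 37 and 39 of 44, against 50.9% and 46.7% of all tested genes. Among 148 other genes with a mean over 12 in both experiments, 61.5% and 69.6% were above 0. Under 4 scalings, 24 and 25 of the 44 members stayed above 0, and the sign differed for 16 and 19. Larger estimates that did not pass were those of Rps25 (0.97, adjusted p 0.0683) and Rpl14 (-0.53, adjusted p 0.256) on the ABA diet and of Rps6 on the control diet, given with its values in what follows. The centrings of the arrays moved members and other genes alike: with centring on genes above the lowest value the median of the members was 0.017 and 0.026 on the ABA and the control diet, against -0.131 and -0.093 for all genes, and with median centring 0.208 and 0.235, against 0.059 and 0.117. With quantile normalisation it was 0.095 and 0.045, against 0.002 and -0.004.

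Larger changes were found among members whose mean over both experiments was 5 to 12. This mean joins levels that cannot be compared between the experiments, and it is not a level class for Rpl37 and Rpl27a. Rpl37 averaged 3.74 in the wild-type-only and 10.89 in the genotype experiment, and Rpl27a 13.67 and 8.01. The rest of these members averaged 5 to 12 in each experiment. On the ABA diet the 8 members with a mean of 5 to 12 (Rpl12, Rpl14, Rpl27a, Rpl37, Rpl39, Rps25, Rps27l and Rps6) had a median absolute change of 0.504, the 33 with a mean over 12 one of 0.142, and the 3 with a mean of at most 5 (Rpl39l, Rps27 and Rps4l), near the lowest value, one of 0.025. With the control diet the medians were 0.460, 0.128 and 0.059. Of 148 other genes with a mean over 12 in both experiments, 23% passed with LPS on the ABA and 33.1% on the control diet, against 6.9% and 3.45% of 29 members of that brightness. These shares are descriptions with no test between them.

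Among members described whatever their change, Rps6, the small subunit protein phosphorylated by S6 kinases, read 9.67, 9.75, 9.75 and 9.64 with LPS and 9.45 and 9.32 without on the control diet of the wild-type-only experiment. In wild-type mice of the genotype experiment it read 8.22 and 9.05 with LPS, against 6.47 and 7.59 without. The fitted change was 0.91 ± 0.32 (SE), and its adjusted p of 0.0599 did not pass. Under ABA it was 0.31 (adjusted p 0.558). Rplp0, the base of the stalk that recruits elongation factors, changed by 0.08 on the ABA and 0.15 on the control diet, and Rplp2, an acidic protein of that stalk, by 0.17 and 0.11. Rpsa, a small subunit protein also described as a laminin receptor, changed by 0.25 and 0.07. Adjusted p for these 3 genes lay between 0.385 and 0.884.

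Of the paralogues, Rps27l, a paralogue of Rps27 induced by p53, read 10.83 to 11.28 with LPS and 10.35 and 10.40 without on the control diet of the wild-type-only experiment. On the ABA diet it read 10.65 to 11.04 with LPS and 10.25 and 10.07 without. The 8 arrays with LPS lay above the 4 without, but in the fit the change was 0.49 (adjusted p 0.0793) on the ABA and 0.47 (adjusted p 0.0875) on the control diet. Rpl7l1, a relative of Rpl7 outside the rule and known from yeast as a factor of large subunit assembly, changed by 0.50 ± 0.18 on the ABA diet (SE, adjusted p 0.0737) and rose by 0.85 ± 0.18 on the control diet (SE, adjusted p 0.00391), where Rpl7 changed by 0.20 (adjusted p 0.201). In the genotype experiment Rpl7l1 rose by 0.68 in null and 0.61 in wild-type mice (adjusted p 0.0172 and 0.0183). Rpl22, whose loss in mice blocks development of T cells, changed by -0.07 (adjusted p 0.795), and its paralogue Rpl22l1, outside the rule, by 0.43 (adjusted p 0.0535). Rps4x changed by 0.04 and its paralogue Rps4l by 0.06 (adjusted p 0.901 and 0.816). Rpl39, with the repeated values given above, changed by -0.02 and Rpl39l, near the lowest value, by -0.07 (adjusted p 0.934 and 0.266).

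Genes that build ribosomes and start translation, in lists chosen with earlier results of these data known, rose with LPS in larger numbers. Of 40 tested ribosome biogenesis genes, 23 rose with LPS on the ABA and 32 on the control diet, and 0 fell, with medians of 1.02 and 1.38, where 8.93% and 10.6% of all tested genes rose. On the control diet they included Heatr1 (1.61 ± 0.24, adjusted p 0.000206), a factor of rRNA transcription and processing, Ltv1 (1.56), which helps to export the small subunit, and Ddx21 (1.42), a nucleolar RNA helicase. Of 19 translation initiation genes, 6 rose on the ABA and 12 on the control diet, with medians of 0.43 and 0.89. Eif1a (2.13, adjusted p 2.22e-07), which helps to scan for the start codon, Eif6 (1.33), which keeps the subunits apart, and the helicase Eif4a1 (0.84) had the smallest adjusted p-values on the control diet, while larger changes such as that of Eif3b (1.60) had higher ones.

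Elongation factors and other genes with TOP mRNAs gave no call. Of 17 tested, 0 rose and 0 fell on either diet (limma; 2 had an unadjusted p under 0.05 on each), with medians of 0.01 (ABA) and 0.10 (control). Mitochondrial ribosomal proteins, encoded in the nucleus but without a TOP start as a class, rose for 6 of 76 on the ABA and 22 of 76 on the control diet, with medians of 0.22 and 0.39, where 8.93% and 10.6% of all tested genes rose, so the 6 (ABA) stand below the share of all genes. Of 18 regulators of ribosomal protein synthesis, 3 rose on each diet: Myc by 2.20 (ABA) and 2.34 (control), Larp1 by 1.44 and 1.53, and Eif2ak2, the RNA-activated kinase PKR that lowers initiation, by 0.88 and 1.23. These lists are compared by their counts and medians only.

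**Figure D3:**
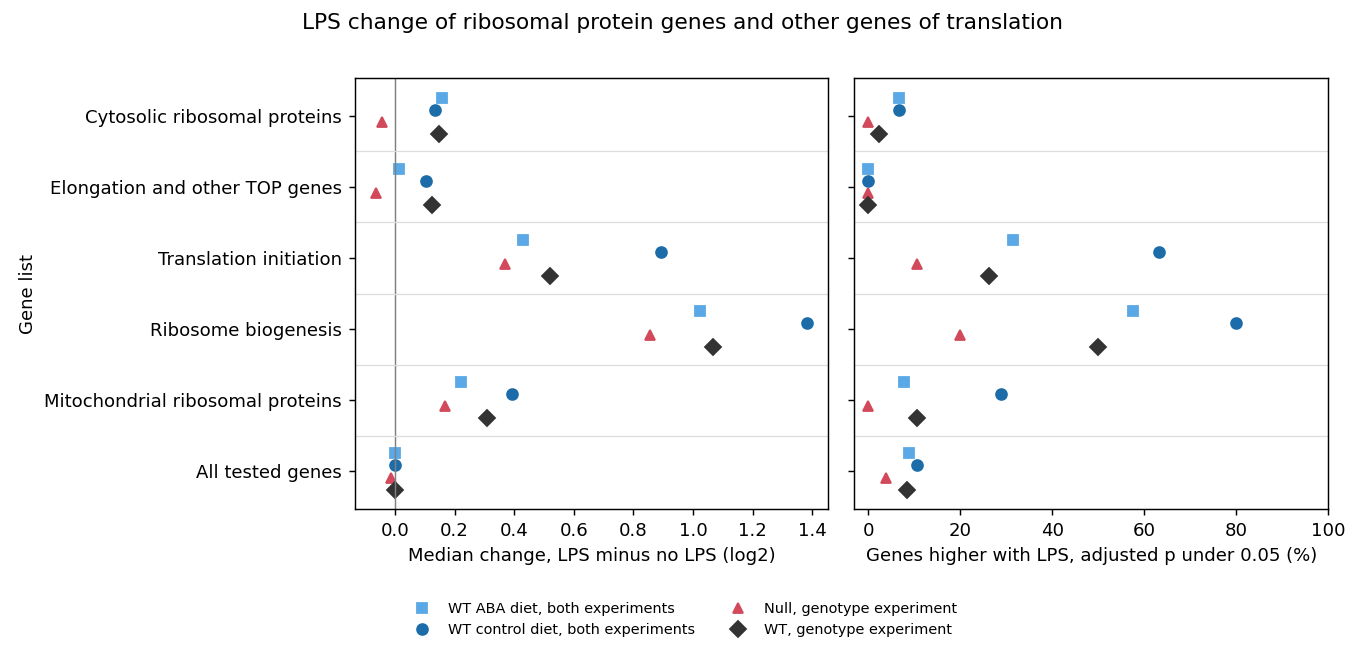
Median log2 change with LPS (left) and percentage of tested genes higher with LPS at an adjusted p under 0.05 (right), by gene list (rows), for wild-type mice on the ABA and the control diet over both experiments and for null and wild-type mice of the genotype experiment (symbols). Ribosome biogenesis lies at medians of 0.86 to 1.38, cytosolic ribosomal proteins at -0.05 to 0.16 and elongation and other TOP genes at -0.06 to 0.13, where with quantile normalisation the members' median in wild-type mice of the genotype experiment is -0.008.

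Markers of cell types moved with LPS as well. Erythroid markers fell for 8 of 13 on the ABA and 6 of 13 on the control diet, with medians of -3.41 and -2.89, and their mean per array in the wild-type-only experiment was 4.39 to 6.37 with LPS and 5.38 to 9.85 without. On the ABA and the control diet cell cycle markers fell for 10 and 4 of 16, B cell markers for 1 and 4 of 11 and macrophage markers for 5 of 13 on each diet, while 1 of these, Marco, a scavenger receptor, rose (1.61 and 1.52). Neutrophil markers rose for 2 and 1 of 10 and fell for 1 and 0, with medians of 0.69 and 0.08. Pancreas markers, high on 2 of the arrays on the control diet as given above, had medians of -1.37 and -2.38 over 2 tested genes and 0 called. Their part in the changes of the ribosomal protein genes was not tested. Leaving out any 1 array kept Rpl12 called on the ABA diet (1.64 to 1.87 over 20 fits).

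In the genotype experiment, wild-type mice of both diets together were compared with LPS and without. Of 44 members 1 rose and 0 fell, where 8.55% of all 13377 tested genes rose and 5.49% fell. It was Rpl12, at 1.01 ± 0.20 (SE, adjusted p 0.0124), 2.01-fold. Leaving out replicate 2 of its LPS-challenged ABA group gave an adjusted p of 0.0522 and 0 members called, and the other 15 fits without 1 array kept Rpl12. These arrays are also part of the wild-type fits above. The next smallest adjusted p-values, neither of which passed, were those of Rps4l (0.37, adjusted p 0.0557) and Rps25 (0.96, adjusted p 0.0613). Rps25, a protein needed by some viral internal initiation sites, read 8.96, 9.88, 8.84 and 8.69 with LPS and 7.95, 8.08, 7.57 and 8.93 without, so 1 array without LPS reached into the range of those with it. The median of the members was 0.15, against 0.000 for all tested genes, and -0.008 with quantile normalisation. With LPS in these mice neutrophil markers rose for 6 of 10 (median 1.93), and erythroid markers fell for 8 of 12 (-4.70) and cell cycle markers for 9 of 16 (-2.36). Their part in the changes of the members was not tested.

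In null mice, 0 of 44 members passed with LPS, and 0 had an unadjusted p under 0.05, where 7.4% of all tested genes were called (3.95% rose and 3.45% fell). Rpl12 read 9.33 and 8.59 with LPS and 7.96 and 8.44 without on the ABA diet, and 8.40 and 8.90 with LPS and 8.99 and 9.08 without on the control diet. On the ABA diet both arrays with LPS lay above those without, and on the control diet both lay below. The fitted change over both diets was 0.19 ± 0.20 (SE, adjusted p 0.635). The smallest p-values were those of Rpl27a (0.68, adjusted p 0.261), Rps27l (0.38, adjusted p 0.352) and Rps29 (-0.09, adjusted p 0.454). Rps27l read 11.74 to 11.96 with LPS and 11.41 to 11.59 without, with no overlap. The median of the members was -0.05, against -0.014 for all tested genes, and -0.011 against 0.005 with quantile normalisation. Of the lists, 8 of 40 biogenesis and 2 of 19 initiation genes rose in null mice, against 20 and 5 in wild-type mice of that experiment, and that difference is tested gene by gene in the following. Neutrophil markers rose for 4 of 10 in null mice (median 1.61), and erythroid and cell cycle markers had medians of -1.72 and -1.06 with 0 called. The null arrays include the 2 with high pancreas markers, the 1 with the Gapdh difference and the 1 with the high 18S rRNA value. Leaving out each array in turn kept 0 members called in 16 fits, with medians of -0.103 to 0.024.

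Groups were also compared by whether their arrays overlap. In wild-type mice of the wild-type-only experiment 4 of 44 members lay higher on all 8 arrays with LPS than on all 4 without (Rpl10a, Rpl12, Rps2 and Rps27l), as did 9.56% of all tested genes. In wild-type mice of the genotype experiment 3 did (Rpl12, Rps2 and Rps4l), as did 9.47% of genes. In null mice 1 did (Rps27l), as did 6.5% of genes. No member (0 of 44) lay lower on all arrays with LPS in any of the 3, where 6.06%, 7.96% and 6.97% of genes did.

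The difference in LPS response between null and wild-type mice was tested directly. Of 44 members 0 passed (limma), 2 had an unadjusted p under 0.05, and 0.0299% of all tested genes were called, 0.0224% higher and 0.00748% lower in null mice. Rpl12 had the smallest p: its LPS change was lower in null than in wild-type mice by an estimate of -0.82 (95% interval -1.46 to -0.19, unadjusted p 0.017, adjusted p 0.943). Rps4l followed with -0.42 and Rps15 with -0.60 (adjusted p 0.943 each). The 95% interval of the Rpl12 difference leaves room for a small as well as a large difference. The median of the members was -0.21, against -0.072 for all tested genes and -0.22 for the 148 other bright genes, and it was -0.018 with quantile normalisation. Erythroid markers had a median difference of 3.30 over 12 genes and cell cycle markers of 1.22 over 16, with 0 called in either, and 0 of the biogenesis, initiation and elongation genes passed.

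**Figure D4:**
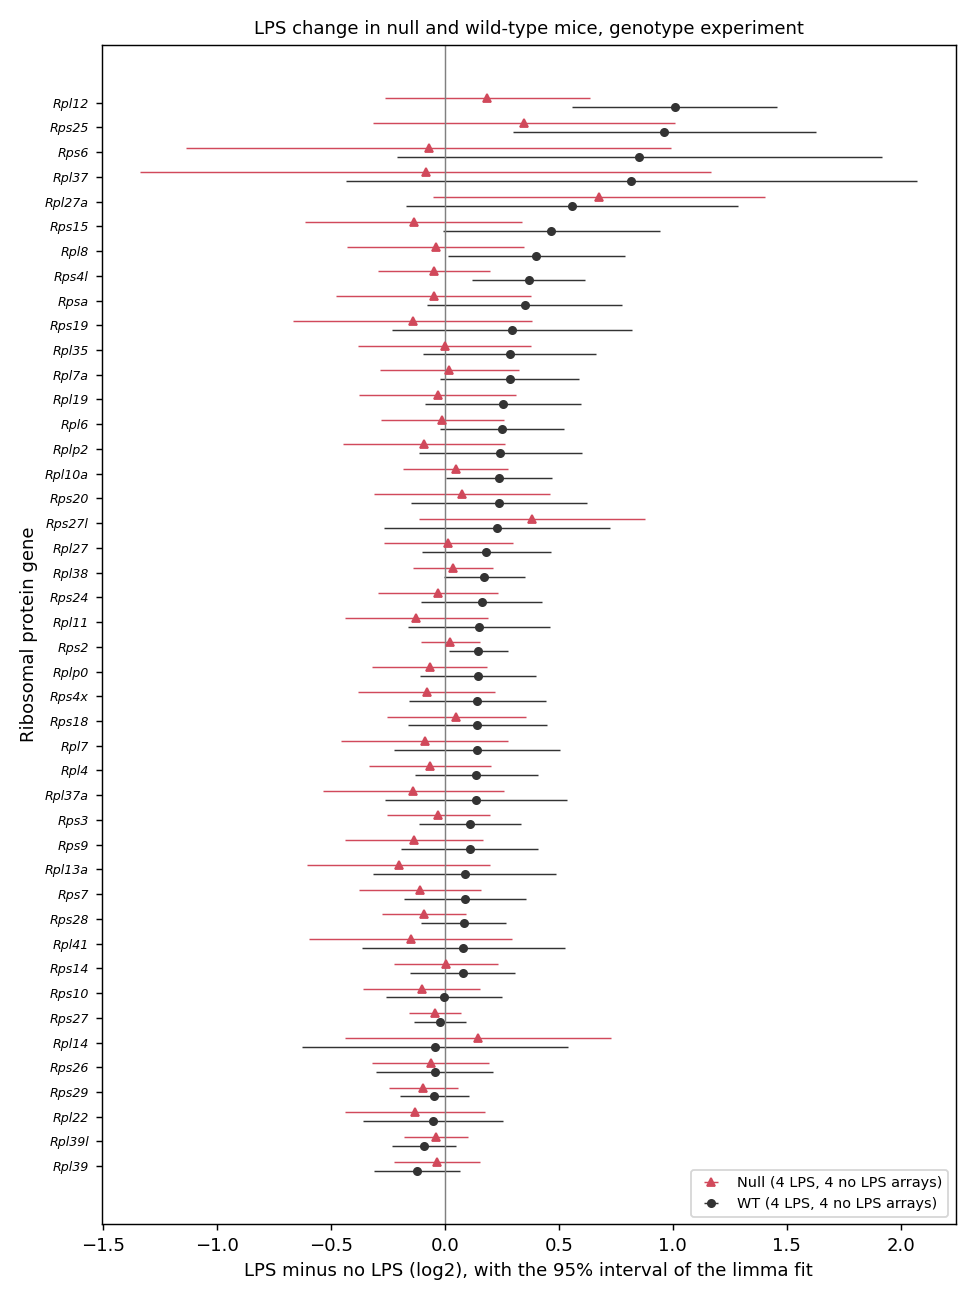
Log2 change with LPS (horizontal axis) of each of the 44 tested ribosomal protein genes (rows, ordered by the wild-type change) in null mice (red triangles) and wild-type mice (black circles) of the genotype experiment; bars are 95% intervals of the limma fit. Rpl12 lies at 0.19 in null and 1.01 in wild-type mice, and Rps6 at -0.07 in null and 0.85 in wild-type mice; 0 differences passed the test.

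Direct comparison of null with wild-type mice gave 0 members called with LPS and 0 without, where 0.0299% (0.0224% higher, 0.00748% lower) and 0.00748% of all tested genes were called. With and without LPS, 2 and 0 members had an unadjusted p under 0.05. With LPS, Rpl12 was lower in null mice by an estimate of -0.68 (adjusted p 0.641) and Rps4l by -0.33 (adjusted p 0.791). Without LPS, the smallest p-values belonged to Rpl6 (0.21), Rpl8 (0.29) and Rps2 (0.10), each with an adjusted p of 1. The medians of the members were -0.11 with LPS and 0.10 without, against -0.017 and 0.024 for all tested genes. With quantile normalisation they were -0.011 and 0.023, against 0.007 and 0.000.

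The ABA diet was compared with the control diet in wild-type mice over both experiments. With LPS, 0 of 44 members passed (limma), 3 had an unadjusted p under 0.05, and 0.0149% of all tested genes were called. The smallest p-values were those of Rpl11, a large subunit protein that binds Mdm2 (-0.23, adjusted p 0.944), Rpl4 (-0.18) and Rps26 (-0.24, adjusted p 0.948). All 44 estimates lay within 0.5 log2 units of 0, and the 95% interval lay within 1 for 42. Without LPS, 0 passed, 1 had an unadjusted p under 0.05 and 0.00743% of genes were called, with Rps3 (-0.21), Rpl12 (-0.53) and Rpl14 (0.66) first (adjusted p 0.843 to 0.849).

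Whether LPS acted differently on the 2 diets was tested as an interaction, and 0 of 44 members and 0% of all tested genes passed. At an unadjusted p under 0.05 there were 2 members. Rpl12 differed by 0.86 (95% interval 0.17 to 1.55, adjusted p 0.955), which sets its change of 1.79 on the ABA diet beside 0.93 on the control diet without a call. Rpl14, a large subunit protein, differed by -0.97 (adjusted p 0.955): on the ABA diet it read 7.91, 9.23, 8.02 and 7.70 with LPS and 9.22 and 8.02 without in the wild-type-only experiment, so 1 array in each group stood about 1 log2 unit above the rest. In null mice, ABA against the control diet gave 0 members called (limma) and 0% of genes, 1 at an unadjusted p under 0.05, and Rpl27a (-0.83), Rpl11 (-0.24) and Rpl6 (-0.19) first, each with an adjusted p of 1.

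An array of the wild-type-only experiment stood apart within its group. The array of replicate 2 of LPS-challenged wild-type mice on the ABA diet in the wild-type-only experiment read 11.61 for Rplp0, against 12.80 to 12.98 on the other 3, and 11.54 for Rps9, against 12.83 to 12.85. Rps10, Rpl7a, Rps24, Rpl7, Rplp2 and Rpl11 were also low on it, while Rpsa, at 15.28, and Rps25, at 10.88, were high. Of the 35 members with a mean over 10, 14 lay more than 0.3 log2 units below the mean of the other 3 arrays and 3 as far above, against 30.3% and 27.4% of 1262 other genes of that level. It correlated with its group at 0.989, against 0.996 for the others, and its Xist value was 10.44, against 12.17 to 12.55. Without it, the median correlation between members rose to 0.486 over 11 arrays, the Rpl12 change on the ABA diet was 1.67, and 3 members were called there: Rpl12, Rpl7a, which rose by 0.39 (adjusted p 0.0412), and Rpl14, which fell by 0.74 (adjusted p 0.0493). Rpl10a and Rpl38 lost their calls without it (0.23, adjusted p 0.0654, and 0.17, adjusted p 0.0789). Other groups were uneven too. Over the 35 members, this array had a median absolute deviation of 0.265 from the mean of the other 3, against 0.365 for the 1262 other genes. In the genotype experiment, unchallenged wild-type arrays of a pair differed by a median of 0.405 (control diet) and 0.347 (ABA diet). The 1440 other genes of that level gave 0.497 and 0.593. Unchallenged null mice on the control diet gave 0.305, against 0.670 for the other genes. The other groups of that experiment gave 0.067 to 0.216, against 0.169 to 0.374. A difference between 2 arrays and a deviation from a mean of 3 are unlike measures. In a pair, neither array can be named as the one apart.

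**Figure D5:**
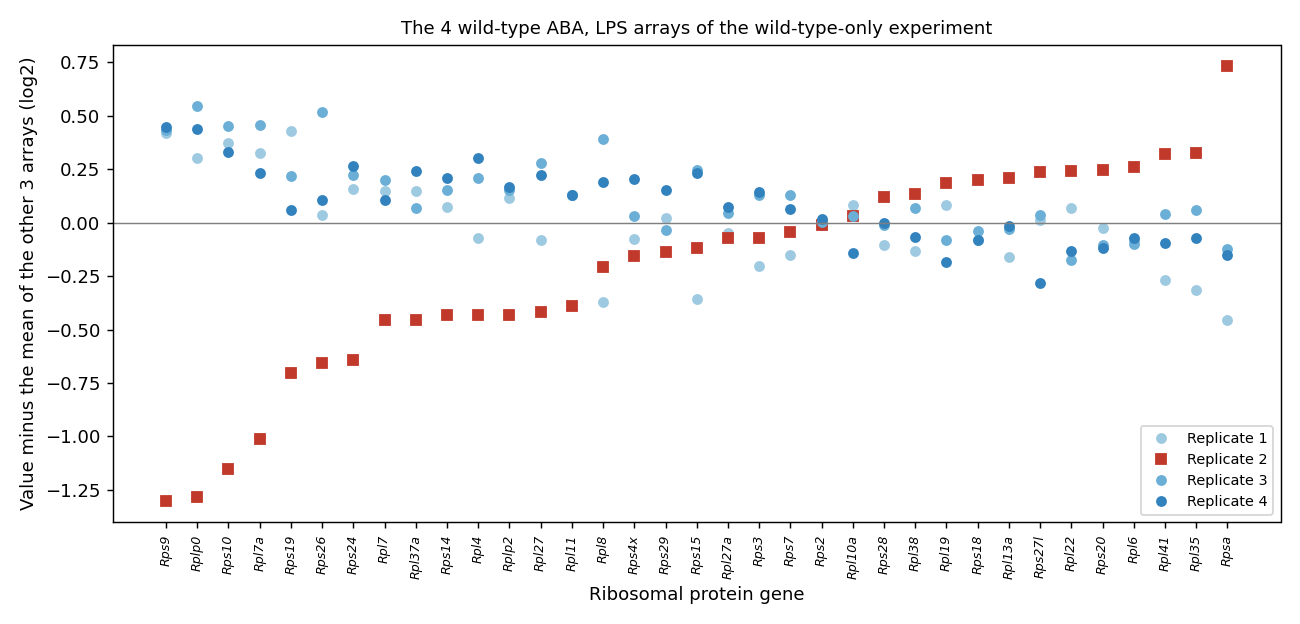
Value of each of 35 ribosomal protein genes with a mean over 10 (horizontal axis) on each array of LPS-challenged wild-type mice on the ABA diet in the wild-type-only experiment, minus the mean of the other 3 arrays of that group (vertical axis, log2 units); red squares are replicate 2 and blue points the other replicates. The squares span -1.30 (Rps9) to 0.74 (Rpsa), wider than any other replicate.

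Genes with several probe sets did not always agree. The 46 members had 100 single-gene probe sets, 95 of them tested over the wild-type arrays, of which 5 rose and 1 fell with LPS on the control diet, where 12% of all tested probe sets were called. Besides those of Rpl12, Rps2 and Rpl10a, a dimmer probe set of Rps9 rose by 1.35 (adjusted p 0.00437) and 1 of Rps20 by 0.99 (adjusted p 0.0235), and 1 of Rpl13a fell by 0.75 (adjusted p 0.027). The brightest Rpl13a probe set, which represents the gene, changed by -0.02. With ABA, 5 of the 95 rose and 1 fell, where 9.61% of all tested probe sets were called: the Rps9 probe set rose by 2.07 and the Rps20 one by 1.20, together with that of Rpl12 and 2 dimmer ones of Rpl41 (1.40 and 1.27), and a probe set of Rps4x near the lowest value fell by 0.53. In the genotype experiment 93 were tested. In null mice 1 rose with LPS, that of Rps20 (0.84, adjusted p 0.0451), where 4.79% of all tested probe sets were called. In wild-type mice of that experiment those of Rps9 (1.25) and Rpl12 rose and that of Rpl13a fell by 0.92, where 9.79% were called. Where probe sets of a gene disagree, the result holds for the brightest one. Of the 46 representing probe sets, 14 are of the type (x_at) whose probes may also match other transcripts, and this family has many processed pseudogenes. Their part in the signal was not tested.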

How the data were processed

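Spleen RNA was measured on 28 1-colour arrays. The deposited values are log2 expression, with a value for every probe set on every array. GCRMA and limma are named in the submitters' processing notes, with no version or role. The log2 scale was read from the range of the values. Their shared lowest value differs between the experiments, so the authors were taken to have normalised these separately. Scanner files were not used here. Groups came from the labels for experiment, diet, genotype and challenge.

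Probe sets were named through the platform annotation, in which 34945 name a single gene, 932 several and 9224 none. Where a gene had several, the one with the highest mean stood for it. Tested genes had to lie over their array's 40th percentile on no fewer arrays than the smallest condition has. The model was limma 3.58.1 (R 4.3.3; lmFit, eBayes). A first fit used 20 wild-type arrays, with a term for experiment (13457 genes; residual degrees of freedom 15), and a second the 16 arrays of the genotype experiment (13377 genes; 8). Benjamini-Hochberg adjustment ran over all tested genes, with a threshold of 0.05. Prior degrees of freedom were 0.772 and 0.981, so each gene's spread rests mostly on its own arrays. Values after ± are standard errors. The fits were tested on simulated data. Arrays give no read depth, and their number limits the precision.

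The members and the gene lists were chosen with earlier results of these data known. Genes were named by rule: members called in a comparison, or those of smallest p where fewer than 3 passed; Rplp0, Rplp2, Rpsa, Rps6 and the paralogue pairs; the brightest, dimmest and widest-ranging members; and leading genes of other lists. Rplp1, Rpl3, Rpl10, Rpl10l and Rpl36a, also in that rule, had no probe set of their own and were not analysed here. The members named on the array that stood apart, those called without it, and the dimmer probe sets were chosen after their values were seen. Alternatives changed the scaling, the filter, the probe sets, the variance model, array weights and the terms of the fit, and left out each array in turn.

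No arrays held identical values. Replicate numbers did not pair the arrays: deviations of same-numbered arrays from their group means had median correlations of -0.0151 (wild-type-only experiment, 4 of 14 pairs over 0.1) and 0.0204 (genotype experiment, 20 of 56). Promoter windows come from RefSeq (GRCm38.p6), and figures were drawn with matplotlib 3.10.9.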

Additional observations from a re-analysis of the deposited data

Results flagged for a closer look

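Within the groups of 4 arrays, 17 values of members stood apart from their group by Dixon's test at 95%, out of 88 groups tested, where chance flags about 1 in 20 groups. All tested genes stood apart in such numbers too: 13 of 44 members did in the LPS-challenged ABA group (29.5%), against 21.5% of genes, and 4 of 44 in the LPS-challenged control diet group (9.09%), against 19.3%. Of these, 11 belong to replicate 2 of LPS-challenged wild-type mice on the ABA diet in the wild-type-only experiment. Low there were Rpl11 at 12.85 (others 13.24), Rpl39 at 5.24 (5.46 to 5.47), Rpl7 at 13.19 (13.61 to 13.68), Rpl7a at 12.22 (13.15 to 13.32) and Rplp0 at 11.61 (12.80 to 12.98). Low as well were Rplp2 at 13.66 (14.07 to 14.11), Rps10 at 11.31 (12.42 to 12.51), Rps24 at 13.99 (14.59 to 14.67) and Rps9 at 11.54 (12.83 to 12.85). High there were Rpl6 at 14.04 (13.77 to 13.79) and Rps18 at 14.60 (14.39 to 14.42). On that array 25% of the tested members stood apart, and 8.76% of all tested genes did.

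In the same group, Rpl39l at 2.42 on replicate 4 (others 2.35) and Rps4l at 2.29 on replicate 3 (others 2.29 to 2 decimals) were high near the lowest value, where a tiny step is enough. In LPS-challenged wild-type mice on the control diet of that experiment, Rpl37 at 3.81 (others 3.73) and Rpl39 at 5.77 (5.41 to 5.46) were high on replicate 2, and Rpl4 at 14.44 (14.56 to 14.58) and Rps28 at 14.49 (14.56 to 14.57) low on replicate 1.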

How the results depend on the processing

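The number of members called with LPS in wild-type mice moved with the processing, while comparisons of diet, of genotype and of their interactions with LPS kept 0 members called under all alternatives run. On the control diet, where 3 were called, the count was 5 with array weights or the mean of all probe sets, 15 with median centring, 1 with quantile normalisation, with centring on genes above the lowest value or with a replicate block, and 0 without an experiment term or in the genotype experiment alone. On the ABA diet, also with 3 called, it was 7 with the mean of all probe sets, 5 with median centring, 1 with array weights, no filter or quantile normalisation, and 0 without an experiment term or in the genotype experiment alone. In wild-type mice of the genotype experiment, where 1 was called, it was 8 with median centring, 3 in 1 fit of all arrays, and 2 with a 60th percentile filter, array weights, plain probe sets, quantile normalisation or the replicate block. In null mice it was 2 with median centring. Over all genes, LPS calls up and down were 1202 and 852 on the ABA and 1428 and 1009 on the control diet as deposited, 1337 and 649 against 8888 and 1079 with median centring, 1042 and 1080 against 1156 and 1229 with quantile normalisation, and 936 and 1592 against 1163 and 1338 with centring above the lowest value. In the genotype experiment they were 528 and 462 in null and 1144 and 735 in wild-type mice. With median centring they were 6590 and 846 against 6470 and 943 there. In both fits, either centring left the filter on low values without effect. All 18193 genes and 46 members were then tested, in place of 13457 and 13377 genes. Genes at the lowest value took on the shift of their array, so these counts are not over the same genes. The centring on genes above the lowest value and a term for high Xist were chosen after seeing the data, and with that term Rpl38 on the ABA diet (0.20, adjusted p 0.0544) and Rpl10a on the control diet (0.21, adjusted p 0.14) lost their calls.

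With 1 array left out the counts were 2 to 4 on the control diet, 1 to 7 on the ABA diet, 0 to 6 in wild-type mice of the genotype experiment and 0 in the other comparisons. The 1 came without replicate 3 of the LPS-challenged or replicate 1 of the unchallenged ABA group of the wild-type-only experiment, or replicate 1 of the unchallenged wild-type ABA group of the genotype experiment. The 0 came without replicate 2 of the LPS-challenged wild-type ABA group of the genotype experiment. The 7 came without replicate 2 of unchallenged wild-type mice on the ABA diet and the 6 without replicate 2 of unchallenged wild-type mice on the control diet, both of the genotype experiment. Rpl12 kept its call in 20 of 20 fits on the ABA diet, 19 of 20 on the control diet and 15 of 16 in the genotype experiment. Rps2 kept it in 20 of 20, Rpl10a in 15 of 20 on each diet (0.203 to 0.283 with ABA, 0.177 to 0.305 on control) and Rpl38 in 8 of 20 (0.155 to 0.239). Rps2 reversed without an experiment term (-0.347, adjusted p 0.991), a fit that mixes levels of the 2 experiments. With the replicate block, whose numbers do not pair these arrays, Rpl12 on the control diet had a change of 0.85 (adjusted p 0.0539). The causes were not tested beyond this. Arrays give no depth, and 2 arrays in most groups limit what can be called.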

Other observations

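Many ribosomal protein genes share probe sets with other genes and were left out of the counts above. A further 110 probe sets name a ribosomal protein gene beside others, covering 43 symbols, 28 of them without a probe set of their own. With LPS in wild-type mice, 108 of them were tested. On the ABA diet 3 rose and 0 fell, and on the control diet 2 rose and 1 fell, where 9.61% and 12% of all tested probe sets were called. In the genotype experiment 107 were tested, with 0 called in null mice (limma) and 1, which fell, in wild-type mice, where 4.79% and 9.79% of all probe sets were called. Their medians with LPS were 0.12 (ABA diet) and 0.13 (control diet) in wild-type mice. These probe sets cannot be assigned to 1 gene.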
